A study of Mus musculus with 17 samples.

Results

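The hub anchors of bulk cells are the 500 genomic anchors, of 204193 eligible anchors (0.245%), that joined the largest number of other anchors in bulk H3K27ac HiChIP libraries of retinoic acid-treated mouse cells. They were chosen by their number of distinct partners, a partner being an anchor joined by 2 or more read pairs after summing the 12 bulk libraries. Ties were ordered by read pairs and then by position. Eligible anchors were autosomal and lay outside chromosome 1 from 130 Mb, chromosome 2 from 150 Mb and the start of chromosome 11 up to base 3200000, and they are called hubs below when they belong to the 500. Both groups were mouse embryonic stem cells formed into embryoid bodies by hanging drops and grown with 0.5 uM retinoic acid for 4 days. The bulk group held 12 libraries of the whole mixture, and the other group held 5 libraries titled cluster2, which the study's methods describe as cells sorted as positive for both EpCAM and CD38, called double positive below. The study's methods give the cells as the mouse embryonic stem cell line R1 and say that the sort for double positive cells was carried out in 5 independent experiments. They do not tie each library to one of these or say that the bulk libraries came from separate cultures, so the p-values measure the spread between libraries, which may be technical. Listed read pairs per library ranged from 65178 to 241202 in bulk and from 50508 to 118179 in double positive cells.

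HiChIP ligates DNA ends that lie close together in the nucleus and enriches them with an antibody, here to acetylated lysine 27 of histone H3, a mark of active promoters and enhancers. An anchor is a stretch of DNA at one end of a loop, and a loop joins a pair of anchors. Anchors with many partners are often found at gene-dense active promoters and in clusters of developmental genes. Retinoic acid acts through nuclear receptors, the RAR and RXR families, which bind repeated half-sites in DNA, and it switches on Hox genes in order along their clusters during differentiation. EpCAM is an epithelial adhesion molecule and CD38 a surface enzyme. In a bulk mixture, fewer cells of a type and less signal per cell cannot be told apart.

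The bulk libraries did not use the hubs evenly. Replicates 1 to 4 gave the hubs between 9.24% and 10.3% of their read pairs, and replicates 5 to 12 gave them between 4.84% and 6.90%, without overlap (7.37% ± 1.83, SD, n = 12). The 5 double positive libraries gave them 12.6%, 12.8%, 12.2%, 12.6% and 12.5% (12.6% ± 0.22, SD). The labels name no batch that separates bulk replicates 1 to 4 from the others, the cause was not tested, and values are given with and without them where they matter. When the hubs were chosen again from bulk replicates 5 to 12 alone, 371 of the 500 (74.2%) were chosen again.

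Sequences are shown first for letters that retinoic acid receptors are known to bind, because several hubs in or near Hox and receptor genes held them. The motif is a direct repeat of a half-site with 5 bases between the copies, called DR5, searched on both strands. The half-sites allowed were AGGTCA and its forms AGTTCA and GGGTCA, with GGTTCA as the last form. The 500 hubs held 22 DR5 matches in 22 different hubs, 10.4 per Mb of hub sequence against 4.95 per Mb in the other eligible anchors. In the middle 1400 bases, a window that fits every hub, 2.20% of hubs and 0.768% of the other anchors of at least that width held a DR5, and all but 1 of these 11 hubs had no start site within 5 kb. The single-base and 2-base spacings, DR1 and DR2, were at 9.88 per Mb each in the hubs and at 8.4 and 11 per Mb in the other anchors. Each match below is written 5′ to 3′ from the mm9 genome with its half-sites in capitals, its spacer and 12 flanking bases on either side in lower case, and it is named by the locus of its hub. The 6 sites shown lie within or near Hox genes, at Rara and Rarb, and at Dhrs3. Rara and Rarb encode retinoic acid receptors, and Dhrs3 a retinaldehyde reductase. The sites were chosen after their positions were seen. The hubs of the Hox sites shown had no start site within 5 kb in the sense used below. The 18 hubs with a Hox start site within 5 kb held 1 DR5 in all.
within Hoxb3, chr11:96202550-96202566, plus strand: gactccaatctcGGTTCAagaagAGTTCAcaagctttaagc
near Hoxc4, chr15:102892145-102892161, plus strand: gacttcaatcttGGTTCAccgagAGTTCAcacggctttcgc
within Hoxd3, chr2:74579597-74579613, plus strand: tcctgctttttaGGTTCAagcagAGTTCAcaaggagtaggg
Rarb, chr14:17408027-17408043, minus strand: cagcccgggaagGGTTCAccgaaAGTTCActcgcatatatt
Rara, chr11:98821322-98821338, plus strand: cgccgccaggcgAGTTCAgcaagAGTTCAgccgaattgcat
Dhrs3, chr4:144488278-144488294, plus strand: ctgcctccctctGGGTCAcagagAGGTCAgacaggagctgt

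The hubs of the Hoxb3, Hoxc4, Hoxd3 and Rarb sites held the same pair of half-sites in the same order around spacers that differed in their letters. A hub near Msi2 held this pair too, so it was not limited to Hox and receptor loci. The hubs of the Hoxb3, Hoxc4, Hoxd3 and Rarb sites differed in how double positive libraries used them. The hub holding the Hoxb3 site had 66 bulk partners and 34 double positive read pairs, that of the Hoxc4 site 47 and 83, the Hoxd3 site 55 and 28, and the Rarb site 58 and none. A match is a description of letters and does not show binding.

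Upstream sequences of 4 hub promoters follow, because these promoters lie at the ends of the range of double positive use. Midn and Ptbp1 were the hubs with the most double positive read pairs, and Marcks and Id2 were among the leading bulk hubs with few. Each line gives the 250 bases before the annotated start in mm9, with CpG dinucleotides in capitals.
Midn, chr10:79610767-79611016, plus strand: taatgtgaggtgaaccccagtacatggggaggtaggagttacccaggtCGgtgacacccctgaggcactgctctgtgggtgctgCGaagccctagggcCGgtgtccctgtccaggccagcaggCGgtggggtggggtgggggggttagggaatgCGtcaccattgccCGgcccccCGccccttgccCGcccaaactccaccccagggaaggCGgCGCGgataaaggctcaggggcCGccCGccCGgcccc
Ptbp1, chr10:79316922-79317171, plus strand: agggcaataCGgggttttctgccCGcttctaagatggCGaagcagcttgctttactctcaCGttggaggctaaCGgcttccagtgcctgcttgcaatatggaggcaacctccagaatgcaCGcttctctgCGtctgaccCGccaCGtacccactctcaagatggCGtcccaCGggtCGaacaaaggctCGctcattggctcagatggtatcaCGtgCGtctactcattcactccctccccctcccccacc
Marcks, chr10:36858733-36858982, minus strand: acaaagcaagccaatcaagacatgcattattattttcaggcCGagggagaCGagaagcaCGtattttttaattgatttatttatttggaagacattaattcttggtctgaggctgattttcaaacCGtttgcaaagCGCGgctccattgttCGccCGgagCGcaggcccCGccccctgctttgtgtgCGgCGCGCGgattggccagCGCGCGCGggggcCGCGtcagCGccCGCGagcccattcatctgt
Id2, chr12:25780958-25781207, minus strand: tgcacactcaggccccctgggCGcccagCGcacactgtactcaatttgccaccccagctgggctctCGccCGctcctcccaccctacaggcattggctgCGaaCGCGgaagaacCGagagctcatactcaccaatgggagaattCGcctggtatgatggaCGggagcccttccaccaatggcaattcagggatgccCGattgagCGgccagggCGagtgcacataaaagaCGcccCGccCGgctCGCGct

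The 250 bases held 14 CpGs at Midn, 15 at Ptbp1, 23 at Marcks and 18 at Id2, against 2 in those before the Gpx4 start and 3 before that of Hoxb4, which are near hubs of high and low double positive use. Over the 357 annotated promoters of genes at hubs the median was 16 CpGs, and over all 21418 autosomal protein-coding promoters it was 9. The GC box CCGCCC, searched on both strands, was in 51.3% of the hub promoters and 39.9% of all promoters. The TATA box TATAAA was in 8.12% and 12.4%, and the E-box CAGNTG in 33.1% and 42.3%. None of these shares was tested.

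The hubs had between 32 and 99 bulk partners, with a median of 39, and between 141 and 1484 bulk read pairs, with a median of 236. These values chose the hubs and are given as a description. The other eligible anchors had a median of no partner and at most 32. At the threshold, 30 hubs and 9 anchors left out had 32 partners. The last 3 hubs were an anchor between genes, 31463 bases from the start of Skap1, with 157 bulk read pairs, the promoter of Trmt2a and Ranbp1 with 157, and an anchor 22391 bases from Hoxb1 with 154. The first 3 left out were the promoter of Srsf3 with 154 read pairs, an anchor 109692 bases from Paqr3 with 154 and one 121166 bases from Enc1 with 150. Hubs were wider than the other anchors, with median widths of 3770 and 2328 bases, and ranking by partners per kb of width kept 290 of the 500. Counting only partners joined by 3 or more read pairs kept 397.

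**Figure D1:**
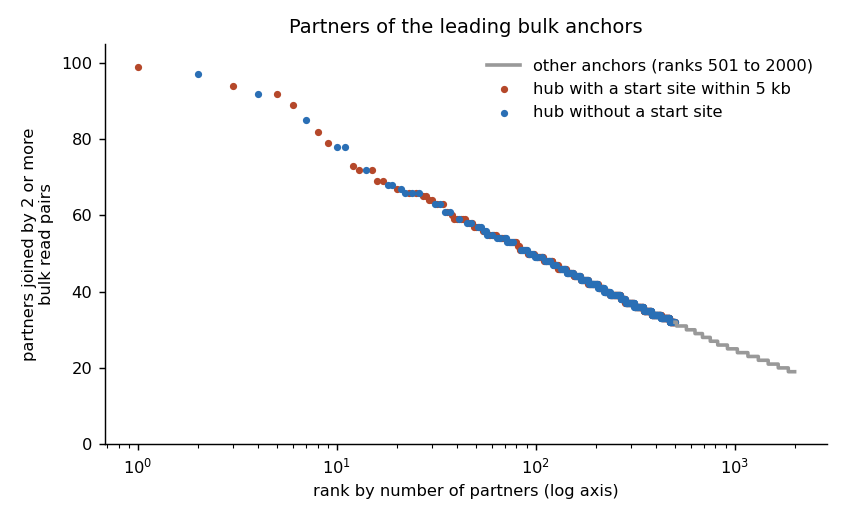
Number of partners joined by 2 or more bulk read pairs (vertical axis) against rank (horizontal log axis); points are the 500 hubs, coloured by whether a protein-coding start site lies within 5 kb, and the grey line is the anchors ranked next. The count falls from 99 at the first hub to 32 at the last and continues downward without a step.

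Of the 500 hubs, 271 (54.2%) had the start site of a protein-coding gene within 5 kb, against 11.1% of the other eligible anchors, and 355 genes were assigned to hubs in this way. The start site lay inside the anchor for 248 hubs. The other 229 hubs were split between 107 inside a protein-coding gene and 122 between genes, at a median distance of 63478 bases from the nearest start site. A start site here is the outermost annotated start of a gene, and 31 of the 229 lay within 5 kb of the start of another protein-coding transcript, among them the hubs in Auts2, Rarb, Rara, Zeb2 and Hoxd3.

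Hox genes, which encode homeodomain factors that pattern the body axis, held 17 of the 39 listed genes at hubs (43.6%), against 2.02% of all 17572 protein-coding genes with an eligible anchor. The 18 hubs at Hox genes carried 8619 bulk and 1539 double positive read pairs, with medians of 43.5 bulk and 10 double positive partners. They included Hoxb1 to Hoxb9, Hoxa2, Hoxa4, Hoxa5, Hoxc4, Hoxc5, Hoxd3 and Hoxd4. Of the regulators that the study assigned to its subpopulations 1 and 3 but not 2, 19 of 33 with an anchor (57.6%) were at hubs. That list was drawn up by the study from its own analysis of these cells, 11 of its genes at hubs are Hox genes, and its share is not independent evidence. Its other members at hubs were Id2, an inhibitor of basic helix-loop-helix factors, Meis1, a Hox cofactor, the nuclear receptor Nr2f1, the neural factors Sox11, Sox4 and Pou3f2, and Tead2 and Tcf3. The regulators of subpopulation 1 only had 3 of 18 genes at hubs (Hoxb4, Klf7 and Nr2f2), those of subpopulation 2 only 3 of 32 (among them Jun and Klf6) and those of subpopulation 3 only 1 of 24 (Cbx5, a heterochromatin protein).

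Of the retinoic acid response list, 6 of 29 genes with an anchor were at hubs (20.7%): Meis1, Nr2f1, Nr2f2, Pbx2, Dhrs3 and Nrip1. Immediate early genes, which respond quickly to stimuli, had 5 of 17 (29.4%): Jun, Zfp36, Ier2, Klf6 and Egr1. Ribosomal protein genes had 5 of 78 (6.41%), neural progenitor genes 3 of 29 (Sox11, Pou3f2 and Nes, 10.3%) and neuron genes 1 of 38 (Nhlh2, 2.63%). The list of extraembryonic and visceral endoderm genes had 2 of 36 (Serpinh1 and Apom, 5.56%), and the mesoderm and endothelium list 1 of 22 (Tbx6, 4.55%). The replication histone genes had 3 of 63 genes at 1 hub (4.76%), the MYC family and D cyclins 1 of 7 (Mycl1, 14.3%), cohesin and CTCF 1 of 9 (Ctcf, 11.1%) and the signalling list of Wnt, Notch, BMP and Hedgehog genes 1 of 34 (Id2, 2.94%). No gene of the pluripotency list (0 of 22) or the fibroblast list (0 of 12) was at a hub. These shares describe the lists and were not tested.

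Many hubs lay near another. With hubs at most 250 kb apart joined into a locus, the 500 formed 297 loci, of which 220 held a single hub and 11 held 5 or more. Chromosome 11 carried 96 hubs, 19.2% of all against 5.95% of the eligible anchors, and chromosome 10 carried 45. The largest locus ran from Hoxb9 through Skap1, chr11:96131123-96738722, and held 35 hubs. Its hubs had 15174 bulk read pairs, 9389 CPM (counts of read pairs scaled to the group's total, per 1e6), and 950 double positive read pairs, 2321 CPM, where a loop between a pair of hubs counts at each. No double positive read pair was listed at 12 of the 35. The second locus, chr10:79315799-80262447, ran from Ptbp1 to Plekhj1, and each of its 13 hubs had a start site. It went the other way, from 2501 CPM in bulk to 11866 in double positive cells.

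The other large loci went either way. The locus from Naca to Rps26 had 8 hubs and went from 1284 to 6905 CPM. The 9 hubs from Hoxc5 to Gpr84 went from 3437 to 2331, the 9 at Gse1 from 1754 to 943, the 8 around Msi2 from 1144 to 589 and the 5 around Meis1 from 913 to 433. The 7 hubs from Skap2 to Hoxa5 went from 2126 to 2993, so the sums at HoxA and HoxB lay on opposite sides of their bulk values on this scale. The 4 hubs at HoxD, chr2:74548925-74589276, went from 1071 to 259. CPM depends on how many anchors a library lists, and no test was made of these sums.

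**Figure D2:**
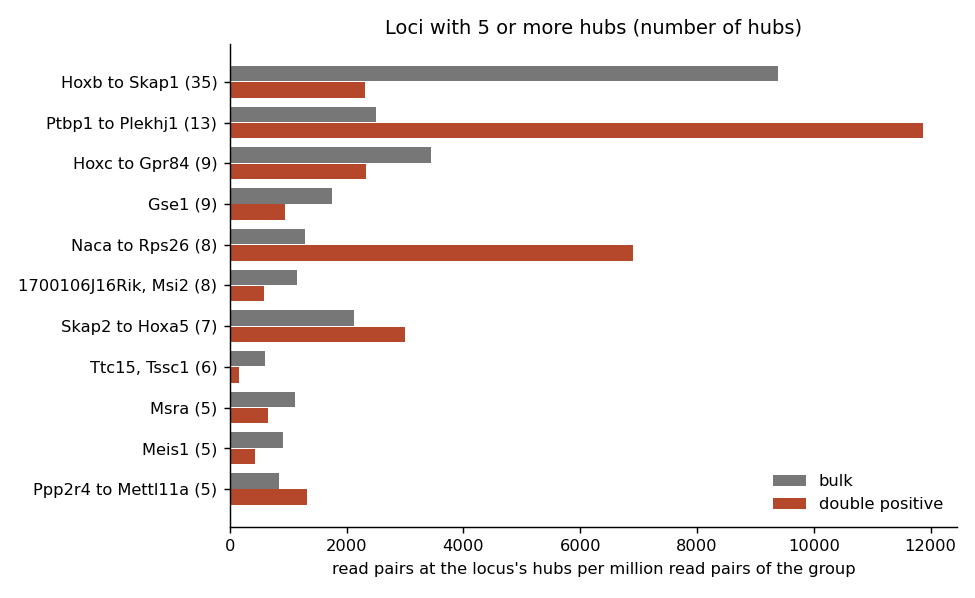
Read pairs at the hubs of each of the 11 loci with 5 or more hubs, in CPM (horizontal bars from 0; bulk is the sum of 12 libraries, double positive the sum of 5, without error bars). The bulk bar is longest at Hoxb to Skap1, 9389, and the double positive bar at Ptbp1 to Plekhj1, 11866.

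Among loops with 2 or more bulk read pairs, 20297 reached a hub, and 1038 of these (5.11%) joined a pair of hubs. The loops at hubs had a median span of 169092 bases, against 49839 in the other eligible loops. The same threshold of 2 read pairs chose the hubs. Over all listed bulk read pairs the order was the other way. Library medians then averaged 118.9 kb at hubs and 135.4 kb at the other eligible anchors. Of the loops at hubs, 41.4% rested on exactly 2 read pairs, against 63.7% of the others. Hubs joined a median of 9.44% of the anchors that lay within 2 Mb of them, and Marcks joined 32.6% of its 304. Across the hubs the number of anchors within reach had a Spearman correlation of 0.04 with the number of partners, and anchor width one of 0.17, both over 500 hubs that share the same libraries.

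Double positive libraries listed a read pair at 460 of the 500 hubs (92.0%), against 6.71% of the other eligible anchors. All 5 libraries listed one at 393 hubs. Hubs had a median of 9 double positive partners (0 to 72) and 57.5 double positive read pairs (0 to 699). The 12 bulk libraries listed 1616766 read pairs in all and the 5 double positive libraries 409248. Partner counts of the groups are therefore at unlike depths, which were not matched. The 271 hubs with a start site had medians of 17 partners and 124 read pairs, and the 229 without one had 4 partners and 20 read pairs. In bulk both kinds had 39 partners, with 229 and 250 read pairs. Of the 40 hubs at which no double positive read pair was listed, 37 had no start site, and the other 3 were promoters of Hoxb3, Nr2f2 and Hoxc5. These were 16.2% of hubs without a start site and 1.11% of hubs with one. The other eligible anchors were split in the same direction, with none listed at 97.5% without a start site and 59.1% with one. When 500 hubs were chosen by partners per kb of anchor width, 99 had no listed double positive read pair and 225 had a start site. The files list only loops between called anchors that had a read pair, so an anchor without use and an anchor that was not called cannot be told apart.

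The ranking of anchors by double positive partners shared 98 hubs with the bulk ranking, 19.6% of each list of 500, and 258 of the bulk hubs were among its first 5000. These rankings too rest on unlike depths. Over the 500 hubs, bulk and double positive partner numbers had a Spearman correlation of 0.06, a description over a list whose bulk range was limited by the choice. Of the hub loops, 22.7% also had a double positive read pair, against 12.1% of the other eligible loops. Among loops with both anchors used in double positive cells the order was the other way, 75.5% at hubs against 82.2%.

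**Figure D3:**
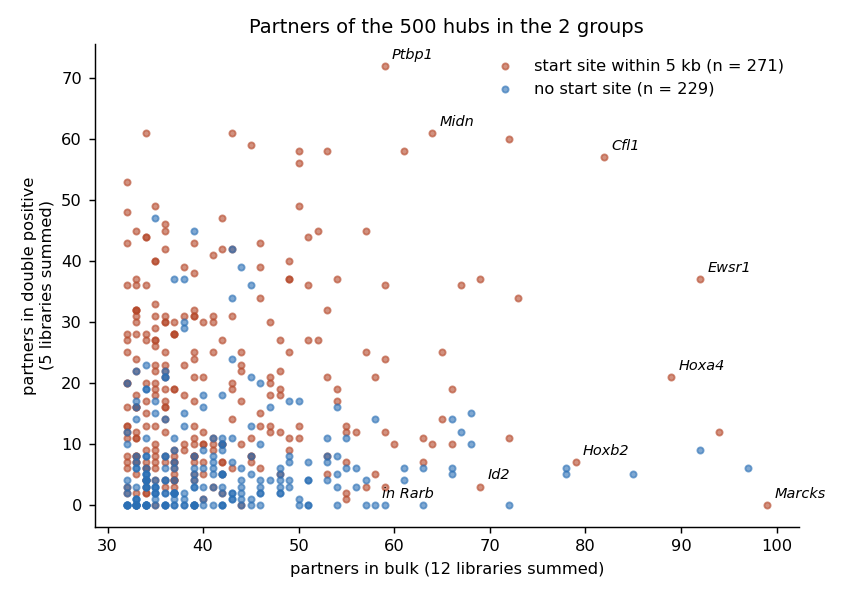
Partners in double positive libraries (vertical axis, 5 libraries summed) against partners in bulk (horizontal axis, 12 libraries summed) for the 500 hubs, 1 point each, coloured by whether a start site lies within 5 kb. Marcks, with 99 bulk partners, lies at 0, and Ptbp1, with 59, lies at 72.

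Read pairs at each of 43452 anchors, those with at least 20 read pairs in all and a read pair in 5 or more libraries, were fitted with edgeR's quasi-likelihood test. At an adjusted p of 0.05, 10.5% of all tested anchors were called higher in double positive cells and 75.5% lower. All 500 hubs passed the filter, and 60 were called higher, 344 lower and 96 neither. Since bulk read pairs chose the hubs, nothing is read from these counts. The median fitted log2 difference, double positive over bulk, was -4.38 over all tested anchors and -1.78 over the hubs. The order of these medians turned in other fits. Over the 14465 tested anchors used in both groups they were 0.02 and -1.74. There 45 of 460 hubs were called higher and 319 lower, beside 25.5% and 28.5% of these anchors. With at least 50 read pairs the medians were -1.16 and -2.03. The scale matters: when only library sizes were used for scaling, without TMM, the hub median was -0.13, and 192 hubs were called higher and 210 lower, beside 22.7% and 69.4% of all tested anchors. Under TMM, hubs with a start site had 52 higher and 134 lower of 271, and hubs without one 8 higher and 210 lower of 229. Over all tested anchors of the same kinds, 28.1% were higher and 36.0% lower of the 12509 with a start site, and 3.36% and 91.5% of the 30943 without one. With library size alone the balance of hubs with a start site turned to 160 higher and 47 lower and their median from -0.55 to 1.11, beside 60.2% higher and 25.1% lower of all tested anchors with one. Hubs without one had 32 higher and 163 lower, with medians of -3.39 under TMM and -1.77 on this scale, beside 7.58% and 87.3% of all tested anchors without one. Leaving out bulk replicates 1 to 4 gave 71 hubs higher and 336 lower, beside 16% and 58.3% of the 24827 anchors then tested.

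On CPM without further scaling, the groups did not overlap at 252 hubs, with double positive cells higher at 132 (26.4%) and lower at 120 (24.0%). Over all tested anchors the shares were 14.6% higher and 17.2% lower. Over the 14465 tested anchors used in both groups they were 43.8% higher and 2% lower, and over the 460 such hubs 28.7% and 17.8%. Among hubs with a start site 115 were higher and 19 lower, and among hubs without one 17 were higher and 101 lower. Of all tested anchors 39.4% with a start site were higher and 5.6% lower, and 4.58% and 21.9% of those without one. Double positive read pairs lay on fewer anchors, and the median log2 ratio over anchors used in both groups was 1.85, against 0.11 over such hubs.

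The balance between the kinds of hub was compared within libraries, where the scale cancels. Read pairs at hubs with a start site over those at hubs without one had a log2 ratio of -0.07 at the lowest, 0.14 at the median and 0.30 at the highest in bulk (0.13 ± 0.10, SD, n = 12). In double positive libraries it was 2.01, 1.93, 1.98, 1.97 and 1.94 (1.97 ± 0.03, n = 5). The groups did not overlap. The groups' means differed by 1.83. Bulk read pairs chose the hubs of both kinds, and the measure was added after the values were seen, so it is given as a description with no test. Bulk replicates 1 to 4 averaged 0.13 as did replicates 5 to 12. The ratio was not computed over the other eligible anchors, so it is not shown to be particular to hubs. A related measure, the mean share of read pairs with a promoter partner, rose at both kinds of anchor. It went from 24.3% in bulk to 76.5% in double positive libraries at the other anchors, and from 28.3% to 73.4% at hubs.

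Individual hubs show both ends of this range, in CPM of each library. Marcks, a membrane-bound substrate of protein kinase C, had the most partners, 99, at chr10:36855551-36862074. Its bulk libraries ranged from 165.7 to 404, with a median of 260.2, and its double positive libraries gave 8.46, 23.3, 0, 0 and 0, from 3 read pairs in all. The groups did not overlap, and the fitted log2 difference was -6.41 (SE 0.45), or -4.97 with library size alone. The second hub, chr11:96436142-96441671, lay inside Skap1, an adaptor of T cell signalling, 110235 bases from its start site. It had 97 partners and the most bulk read pairs, 1484, with bulk values from 538 to 1365 and a median of 792. Double positive libraries gave 50.8, 128, 137, 0 and 67.6, all below bulk, with a log2 difference of -5.12 (SE 0.37), or -3.48 with library size alone. The fourth hub, also in Skap1, had 92 partners and a log2 difference of -3.60 (SE 0.32), or -1.95 on the same scale.

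Hoxa4 and Hoxb2, homeodomain genes of 2 clusters, gave unlike values. At Hoxa4, chr6:52138890-52148971, with 89 partners, bulk ranged from 289 to 1239 (median 604) and double positive libraries gave 948, 1163, 1058, 594 and 937, within the bulk range. The log2 difference was -1.11 (SE 0.27) under TMM and 0.56 with library size alone, so its direction depended on the scaling. At Hoxb2, chr11:96211677-96217207, with 79 partners, bulk ranged from 237 to 739 (median 361) and double positive libraries gave 67.7, 93.1, 19.6, 39.6 and 125.5, all below bulk. The log2 difference was -4.14 (SE 0.35), and -2.51 with library size alone. The first hub at Hoxb4 had 72 partners and a log2 difference of -3.57 (SE 0.32), and another anchor, 511 bases from the nearest start site and with those of Hoxb4 and Hoxb3 within 5 kb, had 55 and -2.43 (SE 0.31). With library size alone these were -1.93 and -0.78, and the groups overlapped at the latter.

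Among other developmental regulators, Id2 had 69 partners and gave 8.46, 46.5, 58.8, 39.6 and 38.6 in double positive libraries against 80.8 to 331 in bulk, with a log2 difference of -4.00 (SE 0.41). Sox11, a neural SOX factor, had 55 partners, 272 bulk read pairs and 4 double positive read pairs, with a log2 difference of -5.37 (SE 0.54). Pou3f2, a neural POU factor, had 40 partners, 8 double positive read pairs and a log2 difference of -4.77 (SE 0.42). Nhlh2, a neuronal basic helix-loop-helix factor, stood at -3.70 (SE 0.37), Nr2f1 at -4.06 (SE 0.43), Mycl1, a MYC family member, at -2.87 (SE 0.33) and Nes, the progenitor intermediate filament nestin, at -1.96 (SE 0.34). For these 7 hubs the sign was the same with library size alone. The log2 differences were then -2.38 at Id2, -3.88 at Sox11, -3.21 at Pou3f2, -2.07 at Nhlh2, -2.46 at Nr2f1 and -1.24 at Mycl1. At Nes the log2 difference was -0.30, and the groups overlapped there in CPM, as they did at Nr2f1. Klf7, a Krüppel-like factor with 66 partners, was at -1.93 (SE 0.28), or -0.28 with library size alone, and its groups overlapped. Meis1 with 63 partners (-1.57, SE 0.30) and Dhrs3 with 42 (-1.45, SE 0.30) turned to 0.08 and 0.21 with library size alone, and their groups overlapped. Tshz1 and Zadh2 on chromosome 18 shared a hub of 94 partners and 64 double positive read pairs at -2.48 (SE 0.33), or -0.81 with library size alone, and its groups overlapped too.

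At the other end, Midn, which encodes midnolin, a protein that brings nuclear proteins to the proteasome, had 64 bulk and 61 double positive partners. Bulk ranged from 145 to 531 (median 209), and double positive libraries gave 1972, 1733, 1763, 1802 and 1313, all above bulk, with a log2 difference of 0.88 (SE 0.24). Ptbp1, a repressor of neuronal splicing, had 59 bulk and 72 double positive partners, the most of any hub. Bulk ranged from 138 to 423 (median 224), and double positive libraries gave 1752, 1722, 1665, 1901 and 1458, with a log2 difference of 0.98 (SE 0.23). The other hubs with the most double positive read pairs were Kdm6b, a histone H3 lysine 27 demethylase (640 read pairs, 1.08, SE 0.26), the anchor 4343 bases from the start of Gpx4, a lipid peroxide reductase (583, 1.54, SE 0.27), Naca, a subunit of the nascent polypeptide-associated complex (559, 1.02, SE 0.22), and Nfkbil1 with Ddx39b, an RNA helicase (549, 1.20, SE 0.25). At each of these 6 hubs every double positive library lay above every bulk library. With library size alone the log2 differences were larger, 2.55 at Midn, 2.65 at Ptbp1, 2.75 at Kdm6b, 3.19 beside Gpx4, 2.68 at Naca and 2.86 at Nfkbil1 with Ddx39b.

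Other named hubs follow, and the scaling turned the sign of several. Ewsr1, an RNA-binding protein, shared a hub of 92 partners with Rhbdd3. Bulk ranged from 172 to 512 (median 299.6) and double positive libraries gave 889, 745, 529, 495 and 898, overlapping with bulk, at -0.48 (SE 0.24) under TMM and 1.17 with library size alone. Mus81, a DNA endonuclease, and Cfl1, the actin-severing protein cofilin, shared a hub of 82 partners at -0.29 (SE 0.25), or 1.37 with library size alone, and there every double positive library lay above every bulk library in CPM. Of the immediate early genes, Ier2 stood at 0.81 (SE 0.25), Klf6 at 0.82 (SE 0.28) and the hub of Zfp36, an mRNA decay factor, at 0.65 (SE 0.25), and at 2.47, 2.48 and 2.32 with library size alone. Jun, an AP-1 subunit, was at -1.28 (SE 0.28), or 0.36 with library size alone, and its groups overlapped. The ribosomal hubs were at 0.53 (Rpl19, SE 0.22), 0.10 (Rps26, SE 0.26) and 0.07 (Rpl23a, SE 0.26), or at 2.19, 1.75 and 1.75 with library size alone. Serpinh1, the collagen chaperone HSP47, was at -0.01 (SE 0.25), or 1.65 with library size alone, with groups that overlapped. Apom, an apolipoprotein gene whose hub also held Bag6, was at 1.15 (SE 0.26), or 2.80. Ctcf, the loop-anchoring zinc finger protein, was at 0.49 (SE 0.25), Cbx5 with Hnrnpa1 at 0.05 (SE 0.28), Tbx6 with Ypel3 at -0.07 (SE 0.25) and the histone hub at 0.18 (SE 0.23). With library size alone these stood at 2.15, 1.71, 1.59 and 1.84. At the hubs of Ier2, Klf6, Zfp36, Rpl19, Rps26, Rpl23a, Apom, Ctcf, Cbx5, Tbx6 and the histone genes, every double positive library lay above every bulk library in CPM.

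**Figure D4:**
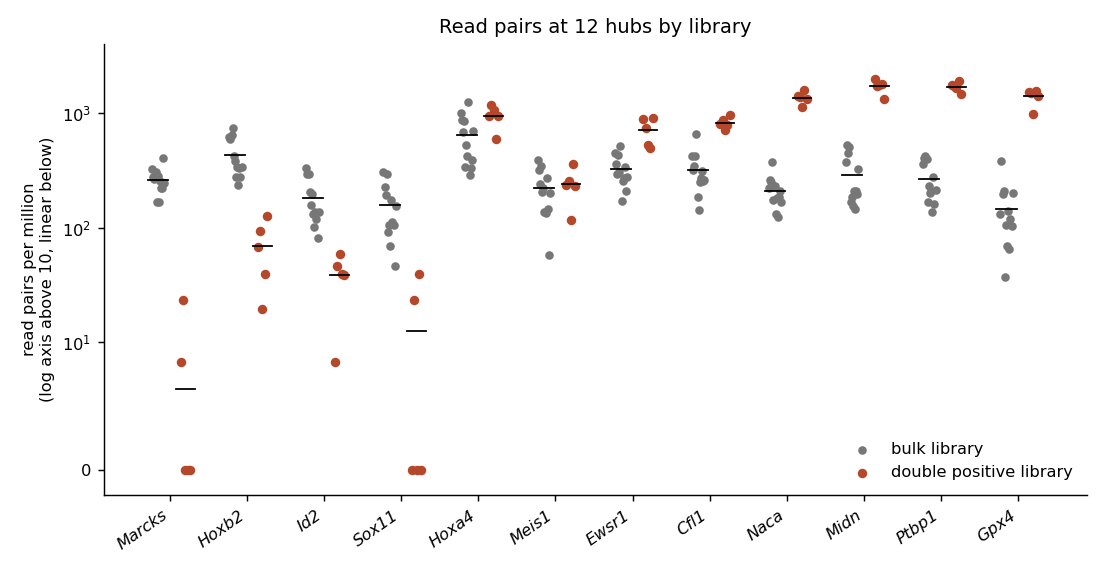
CPM of read pairs (vertical axis, logarithmic above 10 and linear below) at 12 hubs, 1 grey point for each of 12 bulk libraries and 1 red point for each of 5 double positive libraries, with horizontal lines at the group means. Double positive points lie below every bulk point at Marcks, Hoxb2, Id2 and Sox11 and above every bulk point at Cfl1, Naca, Midn, Ptbp1 and Gpx4, while the groups overlap at Hoxa4, Meis1 and Ewsr1.

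The 6 hubs with the most partners among those without a listed double positive read pair had between 50 and 72 partners. The first, chr5:132012353-132016409, lay within Auts2, which encodes a factor of a Polycomb complex in neurons, with 475 bulk read pairs and bulk values from 118 to 556 CPM (median 280.5). The next, chr9:41180484-41185994, lay between genes with 59 partners and 407 read pairs. The hub holding the DR5 of Rarb, chr14:17404334-17411073, had 58 partners and 290 read pairs, with bulk values from 80.8 to 447 (median 160). The others lay 63284 bases from Cmpk2 (57 partners), within Skap1 (51) and 84663 bases from Fam125b (50). No fold is given for these hubs, since the files list only loops with a read pair.

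The genes of the sort were looked up against the double positive label. The anchor at the start site of Epcam, chr17:88034601-88037194, had 13 bulk read pairs over 12 libraries and 25 double positive read pairs (10, 2, 6, 1 and 6), at mean values of 7.91 and 60.6 CPM. The anchor at the start of Cd38, chr5:44259215-44262226, had 26 bulk read pairs and 51 double positive read pairs (21, 6, 2, 8 and 14), at 15.4 and 116.1 CPM. With 1 CPM added to each mean, the log2 ratios were 2.79 and 2.83, beside a median of 1.85 over the tested anchors used in both groups. Neither was a hub. A second anchor within 5 kb of the Cd38 start had 11 bulk read pairs and no double positive read pair.

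The share of hub read pairs whose other end had a start site within 5 kb was measured in every library. In bulk it was 26.5% at the lowest, 28.3% at the median and 29.9% at the highest, and in double positive libraries 74.1%, 73.3%, 73.8%, 73.1% and 72.9%. The groups did not overlap, and the means differed by 45.1 percentage points. With loops between anchors used in both groups the difference was 18.8 points. The bulk libraries of this comparison chose the hubs, so these values are a description with no test. At the other eligible anchors the share was 24.3% ± 3.10 in bulk (SD, n = 12) and 76.5% ± 0.28 in double positive libraries (n = 5). The hub share minus that of the other anchors was 3.98 points in bulk and -3.06 points in double positive libraries (sign flips, two-sided, exact p = 0.0625, the smallest that 5 libraries allow). The difference between these differences was -7.05 points. It also depended on which anchors were counted: with the loops between shared anchors it was 11.02 points, and the bulk difference was -14.1. Bulk replicates 1 to 4 had a hub excess of 1.14 ± 1.39 points (SD) and replicates 5 to 12 one of 5.41 ± 0.81, so the bulk libraries that stand apart at hubs also differed here.

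Read pairs of hubs spanned a median of 118.9 kb in bulk (112.7 to 127.2 over 12 libraries) and 94.4, 93.1, 92.5, 89.8 and 93.9 kb in double positive libraries, a difference of -26.2 kb. The groups did not overlap, and the values are again a description, since the bulk libraries chose the hubs. At the other eligible anchors the span was 135 ± 10.5 kb in bulk (SD) and 80.3 ± 1.03 kb in double positive libraries. The hub span minus that of the other anchors was -16.5 kb in bulk and 12.4 kb in double positive libraries (sign flips, exact p = 0.0625), and the difference between the differences was 28.9 kb. With loops between anchors used in both groups, the difference between groups at hubs was 2.68 kb and the difference of differences 1.34 kb. Counting each loop once turned the difference between groups at hubs to 51.6 kb. Hub excesses were -7.05 ± 3.99 kb in bulk replicates 1 to 4 and -21.3 ± 8.48 kb in replicates 5 to 12. When the hubs were chosen from replicates 5 to 12 alone, the bulk value was -31.2 kb and the double positive value 6.98 kb.

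Per kb of anchor width, and counting only anchors used in double positive cells, hubs carried 69.0, 70.5, 67.3, 69.4 and 69.1 CPM in the double positive libraries. The other such anchors carried 36.1, 35.9, 36.2, 36.0 and 36.1. The difference was 33.0, of the same sign in all 5 libraries (sign flips over 5 libraries, two-sided, exact p = 0.0625, the smallest possible). These libraries were not used to choose the hubs. The bulk mixture that chose them held such cells, however, and the anchors compared were those with a double positive read pair. A higher density at hubs was therefore likely in advance, and the value is a description.

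**Figure D5:**
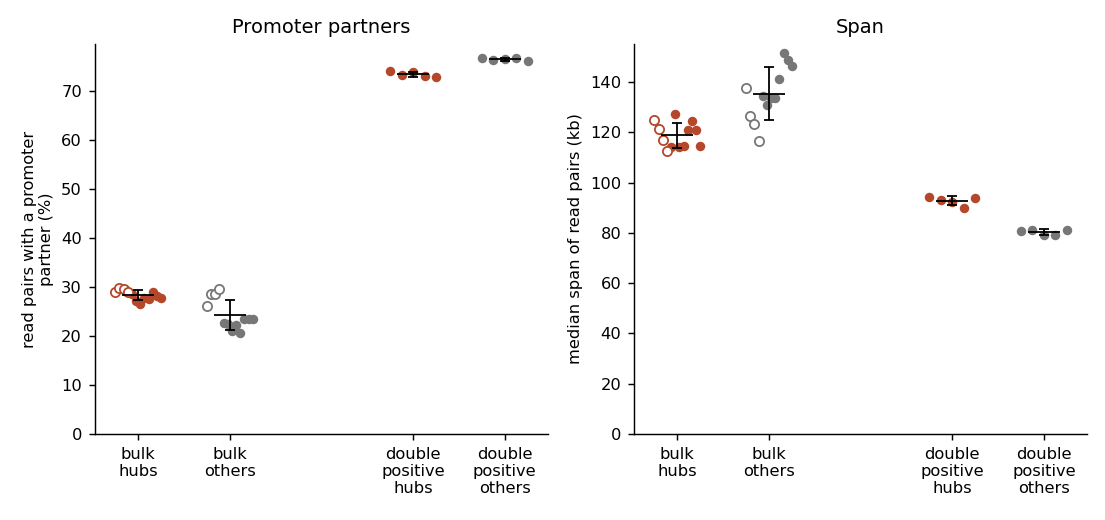
Left, percentage of read pairs with a promoter partner; right, median span of read pairs in kb; each point is a library (12 bulk, 5 double positive) at hubs (red) and at the other eligible anchors (grey), with bars at the mean ± SD and open circles for bulk replicates 1 to 4. Hubs lie near the other anchors within each group, while the groups stand apart, at 28.3% against 73.4% at hubs on the left.

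Base composition was read in the middle 1400 bases, and the share of CpGs was higher at hubs in both kinds of anchor, as a description. Hubs with a start site had a median of 6.07 CpGs per 100 bases and a GC content of 58.4%, against 2.21 and 51.0% in the other anchors with a start site. Hubs without one had 1.64 CpGs per 100 bases (quartiles 1.21 and 2.79) and a GC content of 49.4%, against 0.857 and 43.9% in the other anchors without one. The 40 hubs without a listed double positive read pair had 1.71 CpGs per 100 bases. The GC box CCGCCC was in 85.6% of hubs with a start site, 55% of the other anchors with one, 46.3% of hubs without one and 16.2% of the other anchors without one. The octamer ATGCAAAT, known from POU factors, was in 10.5% of hubs without a start site and 8.98% of the other anchors without one, and in 4.43% and 5.9% of those with one. ACAAAG, a core of SOX binding sites, was in 80.3% and 75.4% of those without a start site and in 60.9% and 64.2% of those with one. Both were searched on both strands. A DR5 was in 10 of the 229 hubs without a start site (4.37%), against 0.787% of the other anchors without one, and in 1 of the 271 with one (0.369%), against 0.628% of the other anchors with one. GC content and CpG number go together with start sites, and their part in the read pairs was not tested.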

How the data were processed

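H3K27ac HiChIP had been made from bulk and double positive cells. Per the submitters' notes and the study's methods, the authors aligned reads to mm9 with HiC-Pro and called anchors and loops with hichipper, left out replicates with few strong loops, and deposited for each of 17 libraries a list of loops with a count of read pairs for each. Overlapping anchors were joined over the libraries (218663 became 216081), 700 read pairs inside joined anchors were dropped, and 1211657 loops were left. Start sites and gene names came from GENCODE vM1 and sequences from the NCBIM37 genome, the same build as mm9. Anchor counts were tested with edgeR 4.0.16 (TMM, quasi-likelihood, Benjamini-Hochberg) in R 4.3.3 after tests on simulated data, with DESeq2 1.42.0 as an alternative. Measures per library were computed in Python 3.11.15, and hubs were compared with other anchors within the double positive libraries by exact sign flips. Differences in these measures that rest on the bulk libraries, which chose the hubs, are given without a test. The edgeR calls at hubs rest on the same bulk read pairs, and nothing is read from their counts. Counts are of read pairs without molecular identifiers, and the limits of depth cover counting error only. Libraries of one group differed beyond sampling noise over all anchors and were each counted as 1 sample.

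The hubs and the gene lists were chosen with earlier results of these data known. Named hubs were the 10 with most partners, the last 3 and the first 3 left out, the 6 with most double positive read pairs, the 6 with most partners and none, up to 3 per gene list, and Epcam and Cd38. The individual values of a gene that this rule would also name are not reported here. Alternatives were other normalizations, filters, partner rules and numbers of hubs, anchors used in both groups, a replicate block and leaving out libraries. Leaving out bulk replicates 1 to 4, the fit of 10 libraries without the block and the log2 balance of hubs were added after seeing the data. Bulk and double positive libraries sharing a number did not deviate together (correlations between -0.011 and 0.014 over 5 numbers).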

Additional observations from a re-analysis of the deposited data

Results flagged for a closer look

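In 4 of 58 groups of double positive values tested, each at a single anchor, 1 of the 5 libraries lay far from the other 4. The rule flags about 1 in 20 groups by chance when values are continuous. It could not flag a group of zeros and always flags a lone read pair, so that rate is only rough here. At the hub of Tshz1 and Zadh2, double positive replicate 3 was the high value at 274 CPM. At the hub of Nfkbil1 and Ddx39b, replicate 4 was the low value at 970 CPM. At the hub beside Gpx4, replicate 3 was the low value at 980 CPM. At the anchor near Paqr3, which ranked just outside the hubs, replicate 1 held the only read pair, 8.46 CPM.

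The excess of promoter partners at hubs over other anchors differed between the groups by -7.05 percentage points, and the excess of span differed by 28.9 kb. Each was flagged by a permutation test of the difference over libraries, but the bulk libraries also chose the hubs, so both are descriptions. With loops between anchors used in both groups they were 11.02 points and 1.338 kb.

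The genome segments left out of the choice also held anchors with as many partners as the last hub. There were 197 on chromosome 1 from 130 Mb, 114 on chromosome 2 from 150 Mb and 4 at the start of chromosome 11.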

How the results depend on the processing

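The balance of hubs with and without a start site and the read density in double positive cells kept their direction under the alternatives run for them. The values lay between 1.75 and 2.38 (log2) and between 28.8 and 47.2 CPM per kb. These alternatives were other numbers of hubs, other partner rules, spans of at least 20 kb and leaving out libraries. A start site inside the anchor, each loop counted once, anchors used in both groups and the replicate block were not run for them. Several other measures turned under some alternatives, and others kept their sign at another size. With a start site inside the anchor, the bulk excess of promoter partners at hubs kept its sign but fell from 3.98 to 0.5437 points. With each loop counted once, the span difference between groups turned from -26.17 to 51.57 kb and the bulk excess from -16.52 to 17.82 kb. With loops between anchors used in both groups, the promoter difference between groups kept its sign at 18.81 points. The promoter excess in bulk turned to -14.09 points and the difference of promoter excesses to 11.02. The span difference between groups turned to 2.676 kb and the bulk span excess to 11.05 kb. The difference of span excesses kept its sign at 1.338 kb. With the replicate block, 5 pairs, the differences between groups and of excesses kept their signs, at 44.26 and -5.17 points and -25.22 and 22.13 kb. The replicate block gave 44 hubs called higher and 368 lower in edgeR, beside 8.77% and 75% of all tested anchors. The same 10 libraries without it gave 45 and 377, beside 9.18% and 75.8%. The replicate numbers do not pair the samples. With library size alone, 192 hubs were called higher and 210 lower, beside 22.7% and 69.4% of all tested anchors. The log2 difference then turned to 0.56 at Hoxa4, 0.08 at Meis1, 0.36 at Jun and 0.21 at Dhrs3. Of the named hubs not called under TMM, it turned from -0.48 to 1.17 at Ewsr1, from -0.29 to 1.37 at Mus81 and Cfl1, from -0.07 to 1.59 at Tbx6, from -0.01 to 1.65 at Serpinh1 and from -0.21 to 1.45 at Ranbp1. Ranking by partners per kb kept 290 hubs. The cause of the other changes was not tested.

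Leaving out 1 library at a time, hubs called higher ranged from 44 to 59 and lower from 335 to 369. Of all tested anchors, 9.14% to 11.6% were then called higher and 72.2% to 75.4% lower. With 1 bulk library left out, 435 to 483 of the 500 hubs were chosen again. DESeq2 called 77 hubs higher and 327 lower, beside 12.4% and 73.7% of all tested anchors. A minimum of 50 read pairs gave 40 and 373, beside 19.6% and 53.6%. No filter gave 44 and 342, beside 1.86% and 70.3%. With 1 library left out, the promoter difference between groups ranged from 44.96 to 45.27 points, the bulk excess from 3.72 to 4.39, the double positive excess from -3.17 to -2.91 and the difference of excesses from -7.45 to -6.78. The span values ranged from -26.73 to -25.41, from -17.68 to -15.14, from 12.12 to 12.85 and from 27.53 to 30.07 kb. Read density ranged from 32.6 to 33.48 and the log2 balance from 1.82 to 1.85.

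Read pairs were few: 3 counts correspond to between 12.4 and 59.4 CPM, depending on the library, so low values carry wide counting error. The files list only called loops with a read pair.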
